A study of Homo sapiens with 9 samples.

Results

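Interferon regulatory factors (IRFs) and signal transducers and activators of transcription (STATs) are the transcription factor families that carry interferon and cytokine signals to the genome. The 8 genes described here are IRF1, IRF2, IRF3, IRF7, IRF9, STAT2, STAT3 and STAT5A, taken by their symbols from a count table of 62710 gene identifiers, and all 8 passed the filter on low counts that left 17412 genes for testing. The table covers HT-29, a human colorectal adenocarcinoma cell line, in its wild-type (WT) form, with 3 libraries each of non-stimulated cells (NS), cells given 500 ng/mL flagellin (F) and cells given 500 ng/mL ADP-heptose (AH), all harvested after 2.5 h. Flagellin is the protein of bacterial flagella and is sensed by TLR5, whereas ADP-heptose is a bacterial sugar nucleotide sensed inside the cell by the kinase ALPK1. The groups carry no genetic change, the model is 1 tumour cell line, and the measurement is poly(A)-enriched RNA, so neither protein levels nor the phosphorylation that activates most of these factors was measured.

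As background, IRF3 is present before a stimulus and, once phosphorylated by TBK1 or IKBKE, switches on interferon genes, while IRF7 amplifies that response and IRF1 is itself made on demand after inflammatory signals. IRF2 binds the same kind of DNA element as IRF1 and can oppose it. Secreted interferons act through JAK kinases to bring STAT2 and IRF9 into the complex ISGF3, which drives the classical interferon-stimulated genes, whereas STAT3 mainly serves gp130 cytokines and STAT5A, with its close paralogue STAT5B, serves growth factor and cytokine receptors.

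ADP-heptose raised the RNA of 3 of the 8 genes, IRF1 (12.2-fold), STAT5A (9.88-fold) and IRF7 (2.07-fold, and under 2-fold without AH replicate 3). Over all tested genes, 7.48% were called higher after ADP-heptose and 0.368% after flagellin. Flagellin raised STAT5A 3.05-fold and IRF1 1.45-fold, and the call on IRF1 was lost in most fits without 1 NS or F library and in the fit with a replicate block. The components of ISGF3 among the 8 genes, STAT2 and IRF9, did not pass the test in any comparison, and neither did IRF2, IRF3 or STAT3 in the edgeR fit of all 9 libraries. IRF3 did pass after ADP-heptose with DESeq2, without a filter on low counts and without any 1 of the AH libraries. IRF2 and STAT3 passed only without AH replicate 3, whose counts stood apart, with log2 changes of 0.30 and 0.25 after ADP-heptose.

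The sequences just upstream of the start sites are shown for IRF1 and STAT5A, the genes with the largest changes. RefSeq windows of 250 bases before a transcript start (GRCh38.p14) were at hand for 5 of the 8 genes, in 7 windows; IRF2, IRF3 and IRF7 had none. The IRF1 window, chr5:132490774-132491023 on the minus strand, had a GC content of 74.4% and 29 CpG dinucleotides, against medians of 58% and 11 over 35116 RefSeq promoter windows of the same length. STAT5A has 3 annotated starts, and their windows differ. The one shown, chr17:42287297-42287546 on the plus strand, ends just before the start of the gene in GENCODE and had 65.6% GC and 4 CpG dinucleotides. An overlapping window further upstream had 54.8% GC and 1 CpG dinucleotide. The last window, chr17:42288248-42288497, had 74.4% GC and 29 CpG dinucleotides and is not shown, because all 250 of its bases lie in exons of other STAT5A transcripts. The window of IRF9, the least abundant of the 8, had 59.6% GC and 4 CpG dinucleotides and is not shown for the same reason, with 212 bases in exons. STAT2 had 21 and STAT3 18 CpG dinucleotides.
IRF1 promoter: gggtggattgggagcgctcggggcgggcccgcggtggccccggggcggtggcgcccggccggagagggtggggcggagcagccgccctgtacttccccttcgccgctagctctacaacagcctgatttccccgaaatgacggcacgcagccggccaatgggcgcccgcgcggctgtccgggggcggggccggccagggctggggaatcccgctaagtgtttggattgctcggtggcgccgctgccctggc
STAT5A promoter, window at the GENCODE gene start: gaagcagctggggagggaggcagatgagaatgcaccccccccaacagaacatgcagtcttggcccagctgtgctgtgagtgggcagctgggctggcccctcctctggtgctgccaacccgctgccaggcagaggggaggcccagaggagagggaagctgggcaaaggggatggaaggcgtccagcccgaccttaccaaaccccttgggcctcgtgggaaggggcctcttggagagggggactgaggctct

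These are descriptions of sequence; which start was used and what bound there were not measured.

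The total was 35040844 to 37537705 counts in the NS libraries, 30770448 to 38304035 in the F libraries and 50054773 to 58272772 in the AH libraries. Levels are given as normalised read counts, which bring every library to 1 common size (the geometric mean of the TMM-scaled sizes). Calls rest on edgeR's quasi-likelihood test, with a Benjamini-Hochberg adjusted p under 0.05 over all 17412 genes. In bulk RNA, more responding cells and more RNA per cell cannot be told apart. AH replicate 3 stood apart from its group: the SD of log2 differences over 12606 genes was 0.363 against AH replicate 1 and 0.368 against AH replicate 2, compared with 0.131 between the latter and 0.162 to 0.19 within the other groups. Calls that rest on that library are therefore given with and without it. Of 10 intestinal epithelial markers, EPCAM, CDH1, VIL1 and the keratins KRT8, KRT18, KRT19 and KRT20 were high in every library, CDH17 was at 3.27 to 4 CPM (counts scaled by library size), and the intestinal regulators CDX1 (0 to 12 counts) and CDX2 (17 to 48 counts) were near absent. The summed epithelial level was 8130 to 8500 CPM in NS, 8330 to 8660 in F and 8920 to 12600 in AH. After ADP-heptose, KRT8, KRT18 and KRT19 had log2 changes of 0.31, 0.45 and 0.25, none of them called. Without AH replicate 3 these changes were 0.11, 0.17 and 0.02. Of 10 markers of other cell types, CD3E, COL1A2 and ALB were at 0 and 5 others had at most 13 counts, while LYZ reached 381 to 438 and COL1A1 12.4 to 19 CPM. Their summed level was 415 to 436 in NS, 444 to 453 in F and 400 to 444 in AH. KRT20 (0.40, edgeR adjusted p = 0.000941) and COL1A1 (0.41, 0.0311) were higher after ADP-heptose on the log2 scale, and their part in the results was not tested. Leaving out AH replicate 3 added KRT18 (0.17, edgeR adjusted p = 0.00431) and CDX2 (-1.37, 0.0187).

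Against NS, 7.48% of all tested genes were called higher and 4.42% lower after ADP-heptose. Of the 8 genes, 3 were called higher, each by at least 2-fold, against 2.89% of all genes, and 5 were not called. All 3 AH libraries lay above all 3 NS libraries for 5 of the 8 genes, against 15.4% of all genes, and the median log2 fold change of the 8 genes was 0.36, against 0.01 over all genes. When libraries were scaled by their totals instead of TMM, the median of all genes moved to -0.127 and the split of calls moved from 1302 higher and 770 lower to 917 higher and 1886 lower, while the calls on the 3 genes were kept. Without AH replicate 3, when 11.2% of all genes were called higher, 6 of the 8 genes were, with IRF2, IRF3 and STAT3 added. The log2 change of IRF7 was then 0.90, which is under 2-fold.

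After flagellin, 0.368% of all genes were called higher and 0.0115% lower. Of the 8 genes, 2 were called higher, 1 of them by at least 2-fold, against 0.212% of all genes. All F libraries lay above the NS libraries for 3 of the 8 genes, against 7.66% of all genes, and below them for 1, against 5.19%. The median log2 fold change of the 8 genes was 0.10, and that of all genes 0.00484. With AH replicate 3 left out, 0.918% of all genes and 3 of the 8 were called higher, with IRF7 added.

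Between the stimuli, 5.4% of all genes were called higher after ADP-heptose than after flagellin and 2.76% lower. IRF1, IRF7 and STAT5A were higher, 2 of them by at least 2-fold, against 2.06% of all genes. All AH libraries exceeded all F libraries for 4 of the 8 genes, against 14.2% of all genes. With AH replicate 3 left out, 10% of all genes and 5 of the 8 were called higher, with IRF2 and STAT3 added. Since both stimuli are compared with the same NS libraries, the paired values below are set side by side and are not independent.

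IRF1 (ENSG00000125347, chr5:132481609-132490798, minus strand, GRCh38) is the interferon regulatory factor that is induced by inflammatory signals and drives antigen presentation genes. Its normalised read count was 628, 692 and 621 in NS replicates 1 to 3, 994, 950 and 863 in the F replicates, and 7603, 7427 and 8695 in the AH replicates. The groups did not overlap: every F library was above every NS library, and every AH library was far above both. The mean rose from 647 ± 39.4 (SD, n = 3) in NS to 7908 ± 687 in AH, a log2 change of 3.61 (SE 0.094, edgeR adjusted p = 1.05e-10), which placed IRF1 at rank 81 of all 17412 genes by absolute change. After flagellin the mean was 935 ± 66.7, a log2 change of 0.53 (SE 0.09, edgeR adjusted p = 0.0236). That call did not hold in 5 of the fits that left out 1 library: leaving out any NS library, F replicate 1 or F replicate 2 gave adjusted p of 0.0602 to 0.182, with changes of 0.48 to 0.58. It was also lost in the fit with a replicate block (0.53, edgeR adjusted p = 0.126). Whether the replicate numbers pair the libraries is not stated in the labels. With AH replicate 3 left out of the common fit the SE was 0.065 and the edgeR adjusted p 1.47e-06. IRF1 was higher after ADP-heptose than after flagellin by 3.08 (SE 0.092, edgeR adjusted p = 6.16e-10).

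IRF1 moved from a low to a leading level among the genes compared. Per length, as CPM per kilobase of exon, it stood at rank 9 of the 14 IRF and STAT genes compared (the 8 genes with IRF4, IRF5, IRF8, STAT4, STAT5B and STAT6) in NS (2.06 ± 0.125) and at rank 8 in F (2.97 ± 0.212). In AH it had the highest mean of the 14, at 25.1 ± 2.18, with IRF3 next at 23.6 ± 5.91, a difference within their spread. As a share of all reads on the 8 IRF genes compared, IRF1 took 10.8% ± 0.48 in NS, 13.9% ± 0.72 in F and 51.1% ± 2.1 in AH. On the opposite strand, C5orf56 covers 22% of the exon bases of IRF1, and the strand setting of the counting was not stated; C5orf56 itself had 40 to 108 counts and a log2 change of 0.20 (edgeR adjusted p = 0.624) after ADP-heptose.

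IRF2 (ENSG00000168310, chr4:184387713-184474580, minus strand) can repress the sites that IRF1 activates. Its normalised read count was 826, 817 and 881 in NS, 885, 802 and 963 in F, and 1076, 997 and 991 in AH. The AH libraries were the highest, all above both other groups, while F and NS overlapped. The log2 fold change was 0.28 (95% interval 0.09 to 0.47, edgeR adjusted p = 0.0598) for ADP-heptose against NS, 0.07 (adjusted p = 1) for flagellin, and 0.21 (adjusted p = 0.191) between the stimuli. Leaving out AH replicate 3, the changes against NS and F were 0.30 (edgeR adjusted p = 0.00746) and 0.24 (0.0442). In CPM per kilobase of exon, IRF2 stood above IRF1 in NS, at 6.69 ± 0.278 against 2.06 ± 0.125, and below it in AH, at 8.13 ± 0.375 against 25.1 ± 2.18.

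Among 3 genes for IRF2-binding corepressors, IRF2BP1, IRF2BP2 and IRF2BPL, 1 was called lower after ADP-heptose, against 4.42% of all genes. IRF2BP2 fell by 0.61 (SE 0.071, edgeR adjusted p = 8.44e-05) on the log2 scale against NS and by 0.73 (2.3e-05) against flagellin. AL160408.2 covers 14.7% of the exon bases of IRF2BP2 on the opposite strand.

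IRF3 (ENSG00000126456, chr19:49659569-49665875, minus strand), the factor held ready in resting cells, was at rank 1, 1 and 2 of the 14 genes per length in NS, F and AH. Its normalised read count was 2550, 2806 and 2630 in NS, 3113, 2864 and 2768 in F, and 3108, 3078 and 4658 in AH. AH replicate 3 was the one library well above the others; AH replicates 1 and 2 lay above the NS libraries but below F replicate 1. The log2 fold change after ADP-heptose was 0.44 (95% interval 0.14 to 0.74, edgeR adjusted p = 0.0587). IRF3 did pass with DESeq2 (0.44, adjusted p = 0.0201), without a filter on low counts, and without any 1 of the AH libraries; without AH replicate 3 the change was 0.22 (edgeR adjusted p = 0.00541). After flagellin it was 0.13 (edgeR adjusted p = 1). BCL2L12 covers 19.3% of the exon bases of IRF3 on the opposite strand, and it rose by 0.41 (SE 0.101, edgeR adjusted p = 0.0213) after ADP-heptose, also with its highest count in AH replicate 3 (2626, against 2021 and 2106); its part in the IRF3 values was not tested.

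IRF7 (ENSG00000185507, chr11:612553-615999, minus strand), which amplifies type I interferon responses, had 1026, 1082 and 1049 normalised reads in NS, 1279, 1246 and 1262 in F, and 1999, 1906 and 2641 in AH. The groups did not overlap, and AH replicate 3 was the highest library. The mean rose from 1052 ± 27.8 in NS to 2182 ± 400 in AH, a change of 1.05 on the log2 scale (SE 0.111, edgeR adjusted p = 3.75e-05). From AH replicates 1 and 2 alone it was 0.90 (edgeR adjusted p = 9.03e-13), which is under 2-fold. Flagellin gave 0.26 (95% interval 0.02 to 0.51, edgeR adjusted p = 1, unadjusted 0.0364). That comparison passed only when AH replicate 3 was left out of the common fit, with a change of 0.26 and an edgeR adjusted p of 0.029. Between the stimuli IRF7 differed by 0.79 (SE 0.11, edgeR adjusted p = 0.000515).

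**Figure D1:**
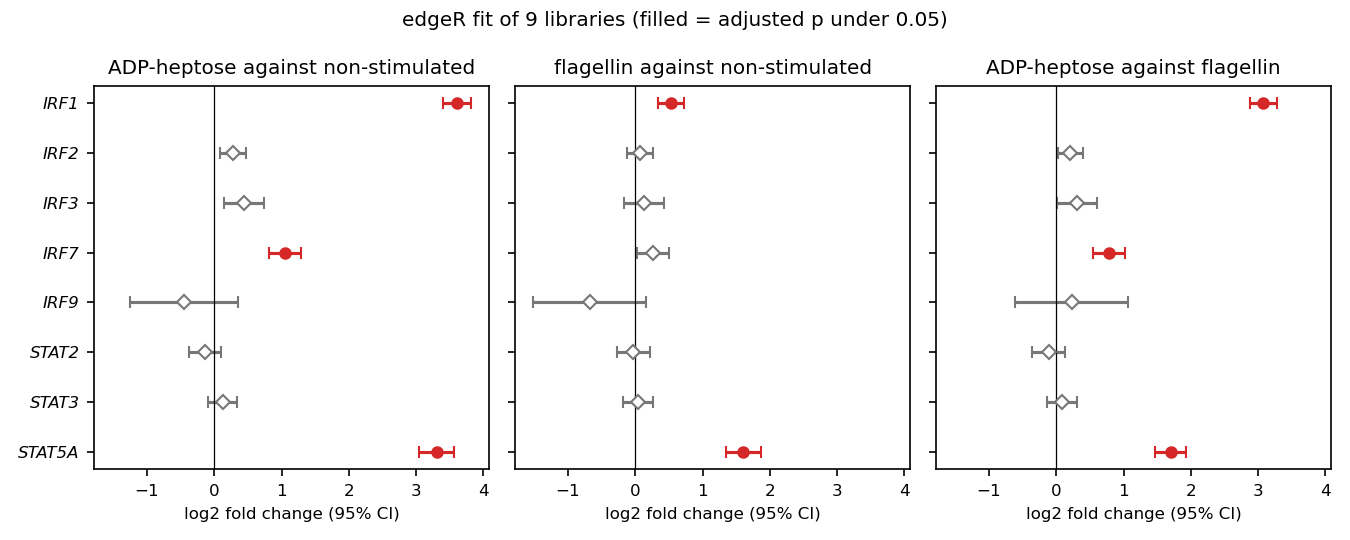
Log2 fold change (x axis) of each of the 8 genes (y axis) in the 3 comparisons, from 1 edgeR fit of 9 libraries; bars are 95% intervals and filled red points passed an adjusted p of 0.05. IRF1, STAT5A and IRF7 lie to the right in both panels with ADP-heptose, IRF1 and STAT5A alone are filled for flagellin, and IRF9 has the widest intervals.

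The genes that act upstream of IRF3 and IRF7 were read as a list of 10 sensors, adaptors and kinases, all tested. After ADP-heptose 5 were called higher, against 7.48% of all genes, and the median log2 fold change of the list was 0.80. TICAM1, the adaptor of TLR3, rose by 1.91 (SE 0.081, edgeR adjusted p = 8.16e-09) and IKBKE, a kinase that phosphorylates IRF3 and IRF7, by 1.69 (SE 0.075, 1.28e-08). IFIH1, the RNA sensor MDA5, rose by 1.54 (SE 0.09, 1.84e-07) and the adaptor TRAF3 by 0.93 (SE 0.085, 1.12e-05). The sister kinase TBK1 had a change of 0.15 (adjusted p = 0.244) and the RNA-sensing adaptor MAVS one of -0.19 (0.117). After flagellin 1 of the 10 was called, IKBKE, with 0.50 (SE 0.076, edgeR adjusted p = 0.0111), and 3 were called without AH replicate 3, with TICAM1 (0.32, edgeR adjusted p = 0.022) and TRAF3 (0.30, 0.00161) added. Over all genes, 0.368% were called higher after flagellin, and 0.918% without AH replicate 3. The genes that rose are sensors and their adaptors and kinases, and their activity was not measured.

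Of 10 interferon genes, only IFNE, an epithelial interferon, had enough counts to be tested. Its raw counts were 15 to 33 in NS, 23 to 38 in F and 87 to 93 in AH, where the libraries were deeper. It rose by 1.37 (SE 0.315, edgeR adjusted p = 0.0135) after ADP-heptose. Against flagellin its change was 1.001 (edgeR adjusted p = 0.0739), and 0.97 (0.0428) without AH replicate 3. IFNB1, the usual first target of IRF3, had 0 counts in every NS and F library and at most 4 in an AH library, and the other 8 had at most 2 counts in any library.

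Of 6 interferon receptor genes, 5 were called higher after ADP-heptose, against 7.48% of all genes, with a list median of 1.94. All 5 were also called without AH replicate 3, when 11.2% of all genes were called higher. IFNGR2 and IFNGR1, the chains of the interferon-γ receptor, rose by 2.14 (SE 0.076, edgeR adjusted p = 1.7e-09) and 1.73 (SE 0.063, 2.19e-09). TMEM50B covers 12.8% of the exon bases of IFNGR2 on the opposite strand. IFNAR2 rose by 3.02 (SE 0.302, 2.36e-05) from 26 to 47 counts in NS, and IL10RB, shared by the IL-10, IL-22 and interferon-λ receptors, by 2.54 (SE 0.435, 0.00198) from 14 to 19 counts. An annotated gene that joins both loci, AP000295.1, covers 44.2% of the exon bases of IFNAR2 and 38.1% of those of IL10RB on the same strand, so how reads were divided among them is uncertain. After flagellin 2 receptor genes were called higher, against 0.368% of all genes. They were IFNGR1 with 0.55 (SE 0.062, edgeR adjusted p = 0.000975) and IFNGR2 with 0.49 (SE 0.075, 0.0116). Of the 4 JAK kinases, TYK2 was called, with 0.53 (SE 0.063, 0.000103) after ADP-heptose; JAK1 had a change of 0.33 (edgeR adjusted p = 0.088), and of 0.49 (4.25e-09) without AH replicate 3, when it was also called against flagellin (0.38, 7.95e-07).

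STAT2 (ENSG00000170581, chr12:56341597-56360155, minus strand), which serves interferon receptors, had 685, 643 and 603 normalised reads in NS, 604, 624 and 669 in F, and 660, 593 and 499 in AH. All groups overlapped, and AH replicate 3 was the lowest library. The log2 fold change was -0.14 (95% interval -0.38 to 0.10, edgeR adjusted p = 0.452) after ADP-heptose and -0.03 (-0.27 to 0.21, adjusted p = 1) after flagellin. Leaving out AH replicate 3, the ADP-heptose value was -0.04 (edgeR adjusted p = 0.855).

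IRF9 (ENSG00000213928, chr14:24161053-24166565, plus strand), the DNA-binding part of ISGF3, had only 9 to 36 raw counts per library. Its normalised read count was 29.9, 23.6 and 34.6 in NS, 21.7, 10.3 and 23.0 in F, and 23.3, 25.7 and 15.1 in AH. The F libraries were all below the NS libraries, and AH overlapped both. The log2 fold change was -0.45 (95% interval -1.25 to 0.35, edgeR adjusted p = 0.471) after ADP-heptose and -0.68 (-1.52 to 0.16, adjusted p = 1) after flagellin. The counts at this depth allow any change within those intervals. The level is uncertain for another reason: AL136295.5, which covers 48.4% of the exon bases of IRF9 on the same strand, holds 36% of the 150-base words of its transcripts. AL136295.5 itself had 12 to 31 counts.

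The 15 listed targets of ISGF3 gave 11 tested genes. After ADP-heptose 0 of the 11 passed edgeR's test or DESeq2's, with 2 higher and 1 lower at an unadjusted p under 0.05, and the list median was 0.17. Over all tested genes 7.48% were called higher and 4.42% lower, so 0 of 11 does not set the list apart. Once AH replicate 3 was left out, OAS3 was called higher (0.48, edgeR adjusted p = 6.21e-07) and MX1 lower (-2.01, 0.0154), and both were then also called against flagellin. MX1 had only 5 to 31 counts over all libraries. After flagellin IFIT2, an antiviral protein that binds RNA, rose by 1.11 (SE 0.189, edgeR adjusted p = 0.025), and it was lower after ADP-heptose than after flagellin (log2 difference -0.80, SE 0.182, edgeR adjusted p = 0.0163).

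The 16 listed targets of IRF1 gave 13 tested genes, of which 8 were called higher after ADP-heptose, against 7.48% of all genes. The list median was 0.55, and the same 8 genes were called without AH replicate 3, when 11.2% of all genes were called higher. TAP1, the peptide transporter of antigen presentation, rose by 1.51 (SE 0.11, edgeR adjusted p = 1.36e-06), and PSMB9, an immunoproteasome subunit, by 1.98 (SE 0.464, 0.0148) from 6 to 8 counts in NS. The chemokine CXCL11 rose by 2.98 (SE 0.75, 0.0224) from 0 to 6 counts. CXCL10, a chemokine for T cells, had 0 to 2 raw counts in NS, 0 to 12 in F and 85 to 106 in the deeper AH libraries. Set against a floor of 3 counts per NS library, it was at least 24.7-fold higher after ADP-heptose. After flagellin 0 of the 13 passed edgeR's or DESeq2's test, with 3 higher at an unadjusted p under 0.05. Over all genes, edgeR called 0.368% higher after flagellin. Between the stimuli, 4 of the 13 were called higher after ADP-heptose, against 5.4% of all genes. PSMB9 and CXCL11 were not among those 4. PSMB9 had a change of 1.71 (edgeR adjusted p = 0.484) after flagellin and differed by 0.27 (0.743) between the stimuli. CXCL11 differed by 1.44 (edgeR adjusted p = 0.224). TAP1 was called for flagellin without AH replicate 3 (0.45, edgeR adjusted p = 0.011), and TAP2 was then called for ADP-heptose against flagellin (0.38, 0.00377).

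**Figure D2:**
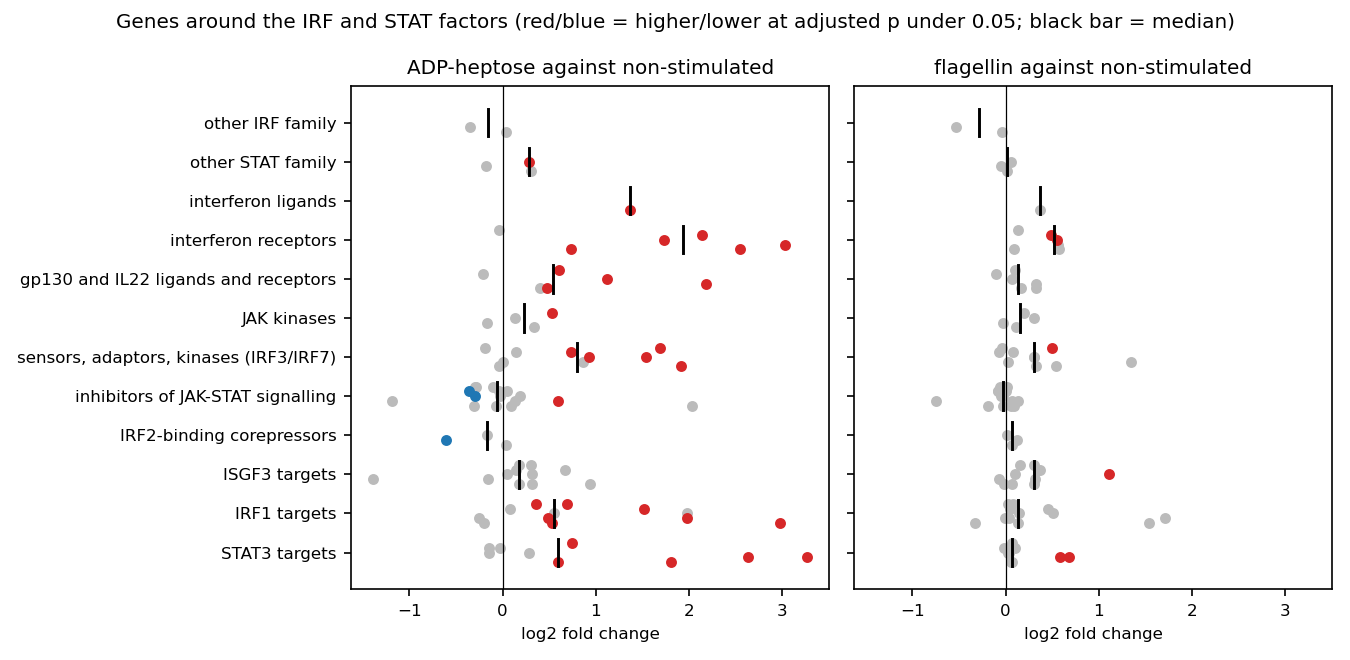
Log2 fold change (x axis) of the tested genes of 12 lists around the IRF and STAT factors (y axis) for ADP-heptose and flagellin against non-stimulated cells; each point is a gene, red and blue points were called higher and lower, and black bars are list medians. CXCL10, with at most 2 counts in NS, is not drawn but is counted in its list's median. The interferon receptors, with a median of 1.94, stand furthest to the right among lists of several genes after ADP-heptose. The ISGF3 targets, the other IRF genes and the IRF2-binding corepressors have 0 red points in that panel. Of all tested genes, 7.48% were called higher.

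STAT3 (ENSG00000168610, chr17:42313324-42388568, minus strand), the transducer of gp130 and IL-22 receptor signals in the gut epithelium, had 3911, 3747 and 3718 normalised reads in NS, 4067, 3752 and 3896 in F, and 4502, 4519 and 3400 in AH. AH replicates 1 and 2 were the highest of all libraries and AH replicate 3 the lowest, so the groups overlapped. The log2 fold change after ADP-heptose was 0.13 (95% interval -0.09 to 0.35, edgeR adjusted p = 0.454). Without AH replicate 3 it was 0.25 (SE 0.05, edgeR adjusted p = 0.000263) against NS and 0.22 (0.00186) against F, so that 1 library decides the call. After flagellin it was 0.04 (-0.18 to 0.26, adjusted p = 1).

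Of 11 ligands and receptors of the gp130 and IL-22 group, 6 were tested, with a median of 0.54 after ADP-heptose. Of these, 4 were called higher, against 7.48% of all genes. The ligand LIF rose by 2.18 (SE 0.112, edgeR adjusted p = 4.86e-08) and the ligand CLCF1 by 1.12 (SE 0.071, 3.81e-07). IL6ST, which encodes gp130 itself, rose by 0.60 (SE 0.133, 0.0109), and IL22RA1 by 0.48 (SE 0.076, 0.00112). All 4 were also higher after ADP-heptose than after flagellin, against 5.4% of all genes. LIF had a change of 0.32 (edgeR adjusted p = 0.902) after flagellin and passed there without AH replicate 3 (0.31, 0.00637). IL6 and LIFR, the specific receptor chain for LIF, were at 0 counts in every library.

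The 9 listed STAT3 targets had a median of 0.60 after ADP-heptose, and 5 were called higher, against 7.48% of all genes. They were BCL3, an IκB-like coregulator of NF-κB (3.27, SE 0.09, edgeR adjusted p = 1.72e-10), the transcription factors CEBPD (2.63, SE 0.099, 3e-09) and JUNB (1.80, SE 0.079, 1.27e-08), the survival factor MCL1 (0.74, SE 0.088, 9.95e-05) and the inhibitor SOCS3. HOOK2 covers 14.2% of the exon bases of JUNB on the opposite strand. PIM1 had a change of -0.15 (edgeR adjusted p = 0.337). MYC, a driver of cell growth, had a change of -0.145 (edgeR adjusted p = 0.211) against NS and was called lower after ADP-heptose than after flagellin (-0.245, 0.0463). With AH replicate 3 left out, MYC was called lower in both comparisons (-0.19, edgeR adjusted p = 0.00235, and -0.285, 1.86e-05). BCL2L1, a survival factor, had a change of 0.28 (edgeR adjusted p = 0.0867) against NS with all libraries and was called without AH replicate 3 (0.15, 0.0186). After flagellin BCL3 (0.58, SE 0.085, edgeR adjusted p = 0.00796) and CEBPD (0.68, SE 0.096, 0.00661) were called higher, against 0.368% of all genes. The genes that rose are also known as targets of other inflammatory factors, and the list does not single out STAT3.

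Of 17 listed inhibitors of JAK-STAT signalling, 16 were tested, with a median of -0.06 after ADP-heptose. Of these, 1 rose and 2 fell, against 7.48% called higher and 4.42% called lower over all genes. SOCS3, which also stands in the list of STAT3 targets, rose by 0.60 (SE 0.139, edgeR adjusted p = 0.0146), SOCS5 fell by 0.36 (SE 0.075, 0.00743) and PIAS1 fell by 0.29 (SE 0.081, 0.0362). PIAS1 shares 32.3% of its exon bases with genes on the opposite strand. With AH replicate 3 left out, 4 were higher and 3 lower against NS. Of all 17966 genes tested in that fit, 11.2% were called higher and 1270 genes lower. In the list, SOCS1 (2.16, edgeR adjusted p = 0.0463), PTPN1 (0.21, 0.0165) and PTPN2 (0.16, 0.0481) were then added as higher and SOCS6 (-0.22, 0.0323) as lower. SOCS1 had only 0 to 28 counts over all libraries, with 2 to 5 in NS. Against flagellin, SOCS7 and PTPN2 were added as higher and SOCS6 and PIAS1 as lower.

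STAT5A (ENSG00000126561, chr17:42287547-42311943, plus strand), a transducer of growth factor and cytokine receptors, had the largest change of the 8 genes after flagellin. Its normalised read count was 193, 168 and 141 in NS, 524, 546 and 459 in F, and 1651, 1611 and 1704 in AH. The groups were fully separate, in the order NS, F, AH. The mean rose from 167 ± 26.2 in NS to 510 ± 45 in F, a log2 change of 1.61 (SE 0.119, edgeR adjusted p = 1.82e-05), and to 1655 ± 47.1 in AH, a log2 fold change of 3.31 (SE 0.119, 2.04e-09). ADP-heptose exceeded flagellin by 1.70 (SE 0.108, edgeR adjusted p = 5.73e-07). By absolute change STAT5A stood at rank 112 of the 17412 genes after flagellin and 100 after ADP-heptose. Each of the 3 calls on STAT5A was kept in every alternative fit.

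The paralogue STAT5B did not pass the test in any comparison. Its normalised mean was 1577 ± 62.1 in NS, 1528 ± 37.2 in F and 1395 ± 140 in AH, and its log2 fold change was -0.18 (95% interval -0.36 to 0.01, edgeR adjusted p = 0.217) after ADP-heptose and -0.05 (-0.23 to 0.14, adjusted p = 1) after flagellin. In CPM per kilobase, STAT5A stood at 0.721 ± 0.113 against 6.06 ± 0.24 for STAT5B in NS and at 2.2 ± 0.194 against 5.88 ± 0.142 in F. In AH the order was inverted, with STAT5A at 7.13 ± 0.203 and STAT5B at 5.37 ± 0.539. STAT5A took 1.65% ± 0.23 of all reads on the 6 STAT genes compared in NS, 4.76% ± 0.42 in F and 13.2% ± 1.5 in AH. Of the 150-base words in STAT5A transcripts, 4.58% also occur in STAT5B, so reads from that stretch could be divided between them.

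**Figure D3:**
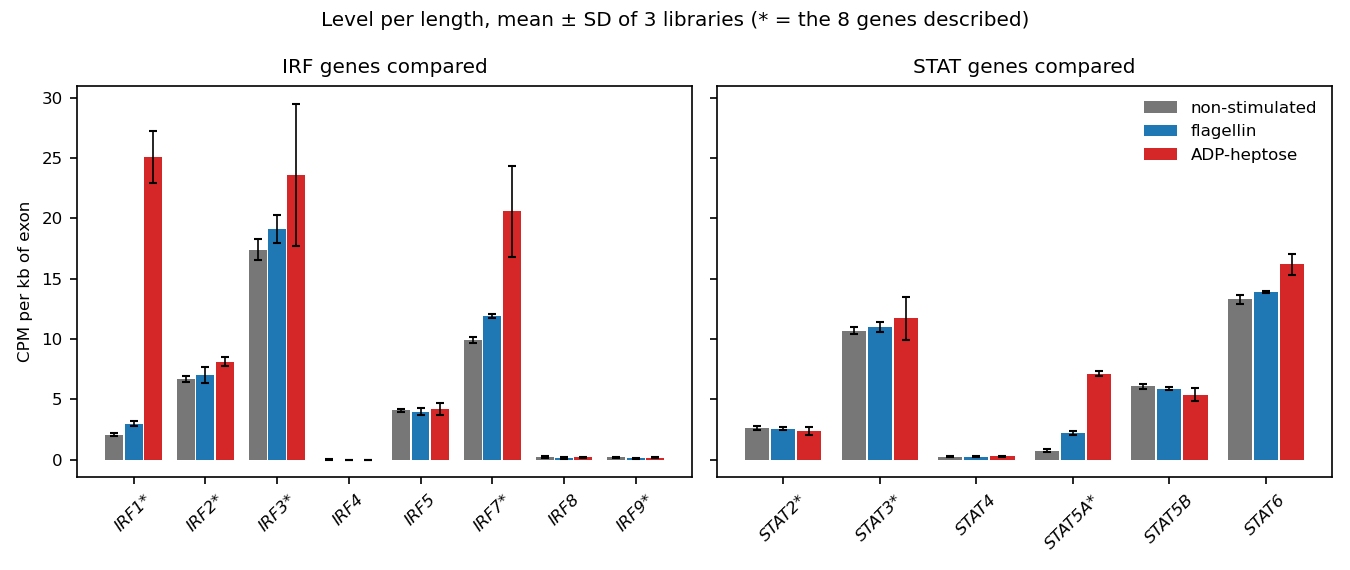
Level per length, in CPM per kilobase of exon (y axis, from 0), of 8 IRF and 6 STAT genes in each group; bars are means and error bars the SD (n = 3), and asterisks mark the 8 genes described. IRF1 goes from 2.06 in NS to 25.1 in AH and STAT5A from 0.721 to 7.13, while STAT5B goes from 6.06 to 5.37 and IRF4, IRF8, IRF9 and STAT4 are near 0.

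Of 6 other genes of these families (IRF4, IRF5, IRF8, STAT4, STAT5B and STAT6), 5 were tested. STAT6, which serves IL-4 and IL-13, rose by 0.28 (SE 0.065, edgeR adjusted p = 0.0128) after ADP-heptose, and the other 4 did not pass the test. Over all genes, 7.48% were called higher. STAT6 had a change of 0.22 (edgeR adjusted p = 0.061) against flagellin, and of 0.27 (8.27e-05) without AH replicate 3. IRF4 had at most 2 counts and was not tested.

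The genes whose levels ran most like those of the 3 genes with the largest changes were found by the Pearson correlation of log2 CPM over the 9 libraries, as a description: the 9 points share the 3 group means, which set most of each value. For IRF1 they were BCL3, the NF-κB inhibitor NFKBIA and the autophagy receptor SQSTM1, each with r of 0.999. For STAT5A they were the chemokine CXCL1 (0.996), the cytokine LTB (0.995) and the chemokine CXCL2 (0.994). For IRF7 they were HLA-B (0.996), the NF-κB pathway regulator TNIP1 (0.996) and VASP, an actin regulator (0.994). CXCL1 went from a normalised mean of 132 in NS to 1252 in F and 11720 in AH, a steeper course than that of STAT5A, and NFKBIA from 1212 to 1945 and 18560.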

How the data were processed

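The 9 libraries hold RNA from HT-29 cells, 3 per group. The authors enriched poly(A) RNA, sequenced paired 150-base reads, used HISAT2 for alignment and featureCounts for counting, and deposited raw counts per gene for each library. The genome build, annotation, strand setting and handling of multi-mapping reads are not given in the sources used here. The table has 62972 lines for 62710 identifiers; 232 repeated identifiers with identical counts were kept once, and 0 columns were left out. GENCODE release 29 lists 58274 (92.9%) of them and gave the positions on GRCh38, the exon lengths and the overlaps. Groups came from the sample titles.

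One model of all 9 libraries with 3 contrasts was made in edgeR 4.0.16 (R 4.3.3), using TMM, the defaults of filterByExpr and the robust quasi-likelihood F test. The study's fold threshold of 2 is given beside the adjusted p of 0.05. All adjusted p are edgeR's unless DESeq2 is named. Precision is limited by the 3 libraries per group, and for genes under about 100 counts also by counting. The study describes independent experiments, but the labels do not tie libraries to them. The test sets differences between groups against the spread between these libraries. Replicate numbers were not used to pair libraries in the main model, and a replicate block was fitted only as an alternative.

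The 8 genes and 14 gene lists were chosen with earlier results of these data known. All 8 genes are named; of each list, values are given for at most 4 called genes by rule, the largest changes first, and any other gene was named after its values were seen. Alternatives were other scalings, the DESeq2 1.42.0 test, other filters, 6 libraries in the fit, a replicate block and each library left out; lists without AH replicate 3 were added after seeing the data. The edgeR fit was run on simulated counts in which some genes were changed in the AH libraries. No simulated library was made to stand apart, so that run does not bear on calls that rest on AH replicate 3. Promoter windows came from RefSeq (GRCh38.p14) and were read with Python 3.11.15, and figures from matplotlib 3.10.9. Some genes of the lists are not reported here and were left out of the list counts, ranks and shares.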

Additional observations from a re-analysis of the deposited data

How the results depend on the processing

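Over the 3 comparisons of the 8 genes, 384 alternative values were computed; 362 kept their direction and their side of the threshold, 11 newly passed it, 6 no longer passed it and 5 changed sign. The sign changes were all of values near 0: STAT3 with library totals (-0.002 for ADP-heptose against non-stimulated, -0.028 against flagellin), IRF2 after flagellin without F replicate 3 (-0.002), STAT2 after flagellin without NS replicate 1 (0.02, in a range of -0.075 to 0.02 when 1 library was left out) and IRF9 between the stimuli without F replicate 2 (-0.049, in a range of -0.049 to 0.433). Of the 8 genes, 3 to 6 were called for ADP-heptose against non-stimulated when 1 library was left out, 1 to 3 for flagellin against non-stimulated and 3 to 5 for ADP-heptose against flagellin; the highest number was without AH replicate 3 each time. Over all genes, leaving out 1 library gave 1317 to 3288, 38 to 171 and 912 to 2721 calls, against 2072, 66 and 1421 with all libraries. The 2-fold rule left 586, 39 and 409 calls, and 1 of the 8 genes for flagellin. For flagellin, DESeq2 called 102 genes, the test without a filter 124 and the fit of 6 libraries 143.

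Same-numbered libraries deviated together with correlations of -0.377 to 0.225, and the numbers were not taken to pair them. With 3 libraries per group, such correlations cannot exclude pairing. With the replicate block, 1 of the 8 genes was called for flagellin, since IRF1 had an adjusted p of 0.126 with the same change of 0.53; the block gave 1587, 46 and 1111 calls over all genes. Library totals also moved the split for ADP-heptose against flagellin from 940 higher and 481 lower to 708 and 1064, with a median of -0.113 over all genes. The cause of the changes with single libraries was not tested. Depth limits IRF9, at 9 to 36 counts, most.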
